A study of Mus musculus with 6 samples.

Results

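The 10 genes described are markers of vascular endothelium: Pecam1, Cdh5, Kdr, Tek, Tie1, Flt1, Emcn, Esam, Egfl7 and Eng. They were chosen by name as a list that reads the endothelial content of a muscle library, with earlier results of these data known. All 10 were found among the 55416 genes counted and among the 15623 genes that passed the filter on low counts. Their transcripts were counted by RNA sequencing of tibialis anterior (TA) muscle, with 3 samples from wild-type (WT) and 3 from SELENOW knockout (KO) mice. The labels give natural aging to 24 months for both groups, and the paper's methods describe aged males of lines kept on a C57BL/6N background, the KO line having been made by deleting an exon of Selenow with CRISPR-Cas9. The labels name no other treatment in either group. SELENOW is a small selenoprotein that is abundant in muscle, and the comparison asks which transcripts differ when it is lost in aged muscle.

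The endothelium is the single layer of cells that lines every vessel, and in skeletal muscle most of it belongs to the capillaries that run beside the fibres. Its cells are joined by adhesion proteins, respond to vascular endothelial growth factors (VEGFs) and angiopoietins made by neighbouring cells, and receive signals of the bone morphogenetic protein family through endoglin and its partner receptors. Transcripts of these proteins are largely restricted to endothelial cells, so their summed level in a bulk library moves with the amount of endothelial RNA. In bulk RNA, fewer cells of a type and less RNA per cell cannot be told apart. The labels number the samples within a genotype without stating that each is a separate mouse, so the spread between replicates is the spread between those samples.

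The libraries held 25351976 to 29111213 counts in WT and 27345022 to 27815342 in KO. Mitochondrially encoded genes took 29.1% to 37.3% of the counts in WT and 35.4% to 40.4% in KO, and the scaling factors of edgeR's trimmed mean of M values (TMM) ran from 0.974 to 1.20 in WT and from 0.893 to 0.968 in KO, so that every KO library had a lower factor than every WT library. Levels are given as CPM, counts scaled to a common library size with these factors. The targeted gene, Selenow, was at 219 to 268 CPM in WT and at 193 to 212 CPM in KO, a log2 fold change of -0.25 (SE 0.14, edgeR adjusted p = 0.604). The 2 ranges did not overlap, but the count over the gene does not isolate the deleted exon and is a weak check of the labels. Genes of fast fibres such as myosin and actin summed to 82203 to 105519 CPM in WT and 90453 to 103050 CPM in KO, so the defining genes of the labelled tissue were abundant in each library.

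RefSeq promoter entries (build GRCm38.p6) were matched by symbol for 7 of the 10 genes, Egfl7 with 3 entries and Eng, Emcn, Tek, Tie1, Kdr and Flt1 with 1 each. Pecam1, Cdh5 and Esam had no entry. Of the members with an entry, the 250 bases before the start are shown for Flt1, which had the largest log2 fold change, for Emcn, which had the smallest, and for Kdr, whose level varied most between WT samples. They are written 5′ to 3′ on the strand of the gene, and capitals mark each match to AGGAAG or its reverse complement CTTCCT, letters that hold the GGAA core read by ETS factors, the transcription factor family of Erg and Fli1 that is known for its role at endothelial genes. Flt1 was taken from chr5:147726012-147726261 on the minus strand, Emcn from chr3:137340828-137341077 on the plus strand and Kdr from chr5:75978456-75978705 on the minus strand.
Flt1: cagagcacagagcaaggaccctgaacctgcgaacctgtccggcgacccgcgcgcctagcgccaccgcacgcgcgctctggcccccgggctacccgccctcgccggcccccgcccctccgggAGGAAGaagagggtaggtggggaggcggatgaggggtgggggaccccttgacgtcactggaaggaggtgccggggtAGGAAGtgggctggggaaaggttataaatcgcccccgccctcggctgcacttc
Emcn: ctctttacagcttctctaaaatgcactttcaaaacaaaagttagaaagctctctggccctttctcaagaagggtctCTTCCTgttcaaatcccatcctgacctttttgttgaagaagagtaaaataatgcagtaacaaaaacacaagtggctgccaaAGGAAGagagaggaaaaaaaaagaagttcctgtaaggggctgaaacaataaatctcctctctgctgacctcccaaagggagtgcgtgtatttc
Kdr: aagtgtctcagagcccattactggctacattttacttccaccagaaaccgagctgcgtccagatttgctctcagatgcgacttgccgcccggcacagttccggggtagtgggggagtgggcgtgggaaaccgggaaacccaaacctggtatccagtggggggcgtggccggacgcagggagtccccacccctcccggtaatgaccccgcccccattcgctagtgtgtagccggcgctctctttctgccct
The Flt1 and the Emcn windows each held 2 matches to AGGAAG and the Kdr window held 0. Searched on both strands, AGGAAG was present in the windows of 5 of the 7 members (Egfl7, Eng, Emcn, Tie1 and Flt1) and in 29.5% of 32851 promoters of the same length. A member counts here if any of its entries matched, while the share over all promoters is per entry. Counted by entry, 6 of the 9 member entries held AGGAAG. The related letters GGAAGT, which overlap the first motif by 5 bases, were present for 5 of 7 members and in 19.7% of all promoters. Those members were Egfl7, Eng, Tie1, Kdr and Flt1, with 6 of the 9 entries, so Kdr held this form and Emcn did not. A longer form with ACAGGAA was present for 3 of 7 members (4 of 9 entries) and in 7.2% of promoters, and one with CCGGAAG for 0 of 7 and in 6.91%. The SOX core AACAAT was found for 2 of 7 members (Emcn and Tek) and in 9.42% of promoters. A TATA box, searched as TATAAA, was found for 1 of 7 members (Flt1) and in 12.4% of promoters. A site for GATA factors, searched as AGATAA, was found for 0 of 7 members and in 9.99% of promoters, and an E-box, searched as CACGTG, for 0 of 7 and in 6.02%. A match describes letters in a window and is not a measured site. Flt1 and Emcn, with the same number of AGGAAG matches, had the largest and the smallest log2 fold change of the 7 members with an entry.

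All 10 members had a higher fitted level in KO than in WT under TMM scaling, by little, and none passed the thresholds of the study (an unadjusted p under 0.05 with a fold change over 1.5 or under 0.7). Over all 15623 genes, 5.35% passed those thresholds, 2.21% as higher and 3.14% as lower in KO, against 0 of 10 members. At the same thresholds the paper, which used DESeq2, reports more genes higher than lower in KO, the reverse of this balance. The DESeq2 fit run here gave 293 genes higher and 478 lower. What makes the balances differ was not tested. The log2 fold changes of the members ran from 0.03 for Emcn to 0.50 for Cdh5, with a median of 0.305 beside -0.0042 over all genes tested, of which 49.4% were positive. Cdh5 and Flt1 had an unadjusted p under 0.05 in edgeR's quasi-likelihood test, 2 of 10 members beside 9.89% of all genes. The same 2 members were the only ones of the 10 in which every KO library lay above every WT library, beside 7.53% of all genes. Over the whole table edgeR's smallest adjusted p was 0.0588 and 0 genes were below 0.05, while 1545 had an unadjusted p under 0.05, and DESeq2's Wald test gave 45 genes with an adjusted p under 0.05 and 0 members among them. For 3 libraries against 3, the smallest p of an exact permutation test is 0.1.

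**Figure D1:**
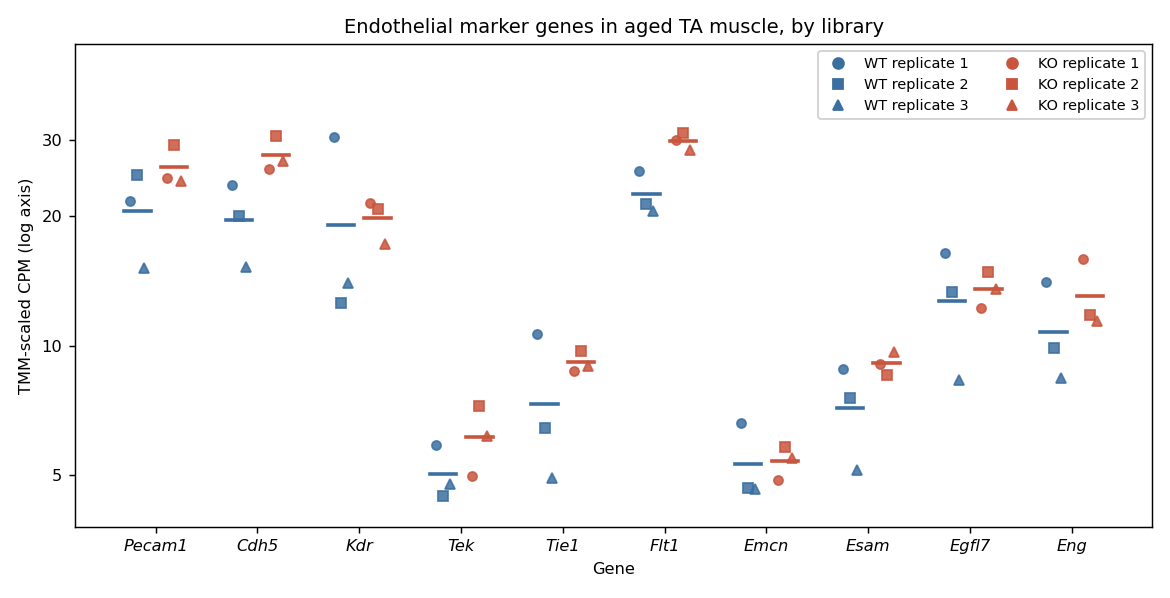
TMM-scaled CPM (log axis) of each marker gene in each library, WT in blue and KO in red, with the replicate shown by the shape of the point and the group mean by a bar. Only for Cdh5 and Flt1 do all 3 KO points lie above all 3 WT points.

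The junction and adhesion proteins come first. Cdh5 encodes VE-cadherin, the cadherin of endothelial adherens junctions, and is at chromosome 8, 104828257 to 104871143, on the plus strand (GRCm39, as are the other gene positions). It was at 23.5, 19.99 and 15.2 CPM in WT and at 25.7, 30.7 and 26.8 CPM in KO, the samples here and below being given in the order of replicates 1 to 3. The groups did not overlap, with a WT mean of 19.6 ± 4.17 CPM and a KO mean of 27.7 ± 2.62 CPM (SD, n = 3 each; exact permutation p = 0.1, two-sided, the smallest possible). Its log2 fold change was 0.50 (SE 0.16, edgeR adjusted p = 0.340). Pecam1 (chromosome 11, 106545043 to 106641454, minus strand) encodes CD31, an immunoglobulin-family adhesion protein at endothelial contacts that leukocytes and platelets also carry. It was at 21.6, 24.8 and 15.1 CPM in WT and at 24.4, 29.1 and 24.1 CPM in KO. WT replicate 2 lay within the KO range and WT replicate 3 lay far below it, and the log2 fold change was 0.34 (SE 0.17, edgeR adjusted p = 0.561). Esam (chromosome 9, 37439374 to 37449615, plus strand) encodes an adhesion molecule of endothelial tight junctions. It was at 8.84, 7.56 and 5.14 CPM in WT and at 9.06, 8.56 and 9.65 CPM in KO, so that WT replicate 1 fell inside the KO range, with a log2 fold change of 0.34 (SE 0.19, edgeR adjusted p = 0.583).

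The VEGF receptors followed different patterns. Flt1 (chromosome 5, 147498414 to 147662821, minus strand) encodes VEGFR1, a receptor that binds VEGF-A, VEGF-B and placental growth factor and that also exists as a soluble decoy form, which a count per gene does not separate. It was at 25.4, 21.3 and 20.5 CPM in WT and at 29.9, 31.1 and 28.4 CPM in KO. On the log2 scale this was the member with the narrowest range within WT and also within KO, and the groups did not overlap, with group means of 22.4 ± 2.63 and 29.8 ± 1.32 CPM (SD, n = 3 each; exact permutation p = 0.1, two-sided) and a log2 fold change of 0.41 (SE 0.13, edgeR adjusted p = 0.338). Kdr (chromosome 5, 76093487 to 76139118, minus strand) encodes VEGFR2, the main signalling receptor for VEGF-A. It was at 30.4, 12.6 and 13.9 CPM in WT and at 21.4, 20.7 and 17.2 CPM in KO. WT replicate 1 held the highest level of all 6 libraries, while the 3 KO samples lay between it and the other WT samples. The means of 19.0 ± 9.93 and 19.7 ± 2.26 CPM (SD, n = 3 each) gave a log2 fold change of 0.06 (SE 0.36, edgeR adjusted p = 0.967), which was negative under total-count scaling.

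The angiopoietin receptors are a pair of related kinases, TIE2 and TIE1. Tek (chromosome 4, 94627526 to 94763213, plus strand) encodes TIE2, the receptor that angiopoietin-1 activates. It was at 5.88, 4.48 and 4.78 CPM in WT and at 4.99, 7.26 and 6.17 CPM in KO, with WT replicate 1 above KO replicate 1 and a log2 fold change of 0.29 (SE 0.19, edgeR adjusted p = 0.645). Tie1 (chromosome 4, 118328388 to 118347258, minus strand) encodes an orphan receptor that pairs with TIE2. It was at 10.6, 6.44 and 4.94 CPM in WT and at 8.74, 9.70 and 8.98 CPM in KO. The 3 KO levels lay within 0.15 on the log2 scale of each other and the WT levels spanned 1.10, from below to above the KO samples, and the log2 fold change was 0.32 (SE 0.24, edgeR adjusted p = 0.696).

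The remaining members are a co-receptor, a surface mucin and a secreted protein. Eng (chromosome 2, 32536607 to 32572681, plus strand) encodes endoglin, which binds BMP9 and BMP10 together with the receptor ALK1. It was at 14.0, 9.87 and 8.40 CPM in WT and at 15.9, 11.8 and 11.4 CPM in KO, with WT replicate 1 inside the KO range and a log2 fold change of 0.28 (SE 0.20, edgeR adjusted p = 0.685). Emcn (chromosome 3, 137046828 to 137137946, plus strand) encodes endomucin, a sialomucin of capillary and venous endothelium. It was at 6.61, 4.67 and 4.64 CPM in WT and at 4.87, 5.83 and 5.50 CPM in KO, with a log2 fold change of 0.03 (SE 0.19, edgeR adjusted p = 0.969), which was negative under total-count scaling. The highest sample was a WT one and so were the lowest ones. Egfl7 (chromosome 2, 26470026 to 26483132, plus strand) encodes a secreted protein of the endothelial matrix and is the host gene of miR-126. It was at 16.3, 13.3 and 8.33 CPM in WT and at 12.2, 14.8 and 13.5 CPM in KO. All 3 KO samples lay within the WT range, and the log2 fold change of 0.10 (SE 0.22, edgeR adjusted p = 0.909) was also negative under total-count scaling. The exons of Egfl7 overlap those of 4 other annotated genes, Agpat2, Mir126a, Mir126b and Gm20532, and those of Eng overlap Fpgs, so without known strand handling their counts are less certain than those of the 8 other members.

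**Figure D2:**
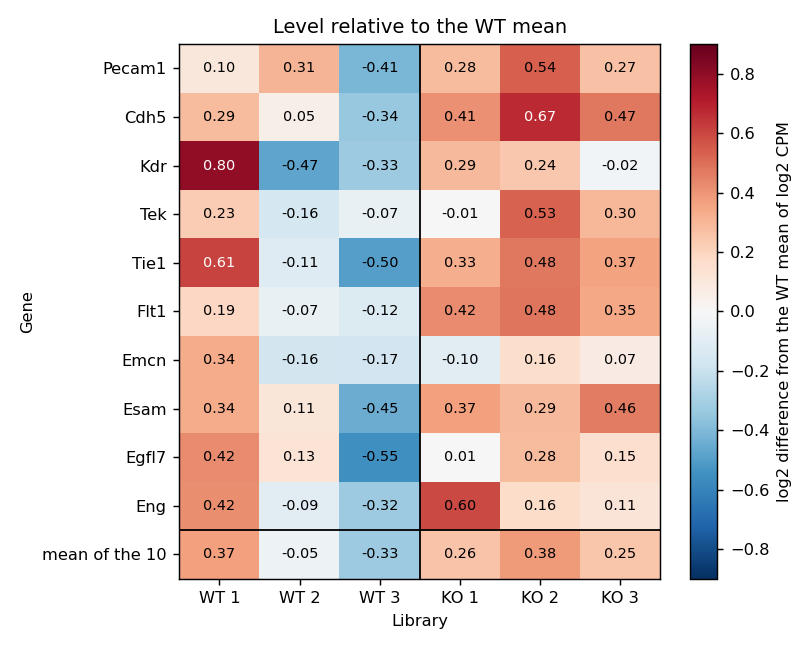
Level of each marker gene (rows) in each library (columns) as the log2 difference from its WT mean, with the mean over the 10 genes in the bottom row. WT replicate 3 is below the WT mean for every gene, WT replicate 1 is above it for every gene, and KO replicate 2 is above it for every gene.

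Per kilobase of counted exon length, Cdh5 had the highest level of the members in both genotypes, with a WT mean of 4.66 ± 0.992 and a KO mean of 6.59 ± 0.624 CPM per kb (SD, n = 3 each). In WT it was followed by Egfl7 (3.54 CPM per kb), Pecam1 (3.29), Eng (2.66), Esam (2.51), Kdr (2.102), Flt1 (1.66), Tie1 (1.49), Tek (1.07) and Emcn (0.981). The ranges over samples overlapped for 9 of the 9 pairs of neighbours in that order. In KO, Pecam1 (4.16 CPM per kb) stood before Egfl7 (3.78), and Flt1 (2.21) before Kdr (2.19), with the other members in the same order. There 6 of the 9 pairs of neighbours overlapped, the exceptions being Cdh5 with Pecam1, Esam with Flt1, and Tie1 with Tek. The order within the list was thus close in the 2 genotypes, and the receptors of angiopoietins and endomucin were the least abundant members per length in both.

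Read together, the members gave an endothelial index, the mean over the 10 genes of the log2 CPM, set relative to the mean of the WT samples. The index was 0.37, -0.05 and -0.33 in the WT samples and 0.26, 0.38 and 0.25 in the KO samples. WT replicate 1 was as high as the KO samples, and WT replicates 2 and 3 were below all of them, so the groups overlapped. The mean difference was 0.298 with an SD of 0.351 over the WT and 0.0729 over the KO samples (n = 3 each), smaller than the spread within WT. No test was made of this score, since the members share the libraries and are not replicates. WT replicate 3 held the lowest level for 8 of 10 members and WT replicate 2 for the other 2, whereas the highest level was in WT replicate 1 for 4 members, in KO replicate 2 for 4, in KO replicate 1 for 1 and in KO replicate 3 for 1.

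The size of the index difference depended on the scaling. Summing CPM per kilobase in place of averaging logs gave 30.1, 23.6 and 18.2 in WT and 28.9, 31.2 and 28.4 in KO, a difference in mean log2 of 0.328, and leaving out the mitochondrially encoded genes before scaling gave 0.3. Scaling by the total counts alone gave an index of 0.21, -0.03 and -0.19 in WT and of -0.02, 0.11 and 0.08 in KO, a difference of 0.0562. Under that scaling the median over all genes moved to -0.251, the median of the members was 0.075, and 7 of 10 members were positive while 10 of 10 stood above the median of all genes. Which scaling is nearer to the amount of endothelial RNA per muscle was not tested. The overlap of the groups and the high value of WT replicate 1 were present under each of the 4 ways of computing the index. The way without mitochondrially encoded genes could hardly differ from the first, since TMM uses a trimmed mean over all genes kept.

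**Figure D3:**
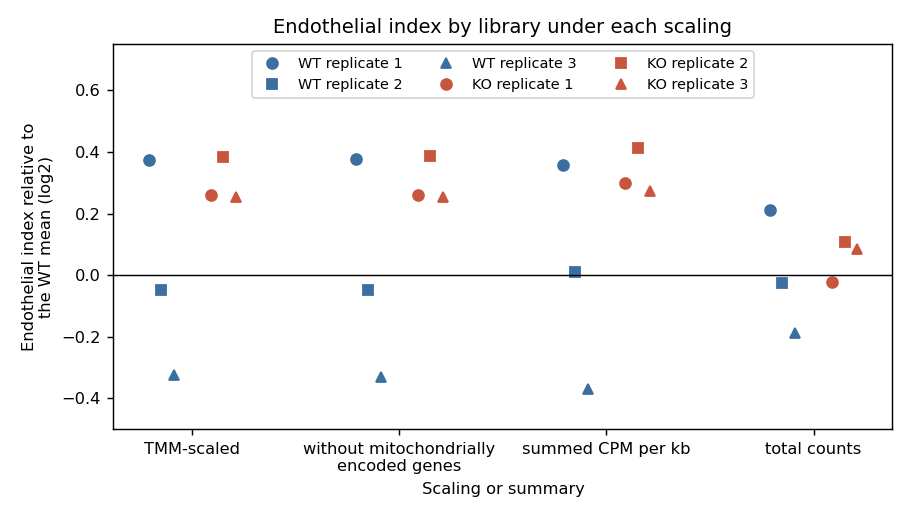
Endothelial index of each library relative to the WT mean (log2) under 4 ways of scaling or summing, WT in blue and KO in red. WT replicate 1 is above the lowest KO library in each, and the KO libraries move toward the WT mean when total counts alone set the scale.

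The members followed the index to different degrees. Around it, Esam had the smallest spread over the 6 libraries (SD 0.139 on the log2 scale), with Cdh5 (0.141), Tie1 (0.142) and Flt1 (0.142) close behind. Kdr had the widest (0.295), being 0.49 above the index in WT replicate 1 and 0.36 below it in WT replicate 2. Pecam1 had the next widest (0.211), with 0.32 above the index in WT replicate 2 and 0.30 below it in WT replicate 1. Thus the receptor VEGFR2 and the adhesion protein CD31 departed from the rest of the list in opposite directions in the same pair of WT samples. Outside the list, the genes whose profile over the 6 libraries came nearest to the index, among 7618 genes with at least its range, were Crocc, Gm28661, Aldh9a1, Fgf2 and Cav1, with root mean square differences of 0.0466 to 0.0635 on the log2 scale. Gm28661, a predicted gene, was at 17348 to 28353 CPM, and where its reads arise was not tested. The share of counts from mitochondrially encoded genes also moved with the index, at 37.3% in WT replicate 1 and 35.4% to 40.4% in KO, where the index was high, and at 29.1% and 29.9% in WT replicates 2 and 3, where it was low. The index difference was 0.3 with those genes left out before TMM scaling. TMM takes a trimmed mean of ratios over genes, and 15529 of 15623 genes remained, so its factors could hardly move. The value of 0.3 therefore does not measure the part of the mitochondrial share. Under total-count scaling, in which the counts of those genes form part of the total, the index difference was 0.0562. The part of the mitochondrial share in the index was not tested. Cav1, the coat protein of caveolae, was at 69.2, 52.8 and 42.3 CPM in WT and 57.2, 69.7 and 63.7 CPM in KO, and Fgf2, a growth factor, was at 9.09, 7.25 and 5.76 CPM in WT and 8.26, 10.1 and 8.72 CPM in KO.

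A wider list of 30 other endothelial genes, of which 29 passed the filter (Nostrin did not), had a median log2 fold change of 0.28, and 23 of the 29 were positive. Without WT replicate 3 the median was 0.114 with 18 of 29 positive, and under total-count scaling it was 0.0301 with 15 of 29 positive, 24 of 29 above the median of all genes and 0 past the thresholds. The study's thresholds were passed by 3 of the 29, each with the higher level in KO. Erg, an ETS transcription factor of endothelial identity, was at 3.12, 3.08 and 2.47 CPM in WT and 4.31, 5.18 and 4.002 CPM in KO (log2 fold change 0.64, SE 0.20, edgeR adjusted p = 0.340). Sox17, a SOX factor of arterial endothelium, was at 3.08, 2.86 and 1.35 CPM in WT and 3.99, 3.75 and 3.96 CPM in KO (log2 fold change 0.69, SE 0.28, edgeR adjusted p = 0.456). S1pr1, the receptor for sphingosine-1-phosphate that stabilises endothelial junctions, was at 9.25, 10.2 and 7.74 CPM in WT and 12.4, 13.8 and 18.4 CPM in KO (log2 fold change 0.72, SE 0.17, edgeR adjusted p = 0.277). In these 3 genes every KO sample was above every WT sample. They were picked by thresholds on the same libraries, so this adds no separate support. Over all genes tested, 2.21% passed the thresholds as higher in KO, and 7.53% had every KO library above every WT library. Adgrf5 (log2 fold change 0.58), Fli1 (0.57) and Fgd5 (0.55) lay just under the fold threshold with an unadjusted edgeR p under 0.05, and at the other end were Cd34 (-0.19), Plvap (-0.08) and Sox18 (-0.07). Leaving out 1 library left 1 to 8 of the 29 past the thresholds, 1 without WT replicate 3, 2 without KO replicate 2 or 3, 6 without WT replicate 2 or KO replicate 1, and 8 without WT replicate 1.

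**Figure D4:**
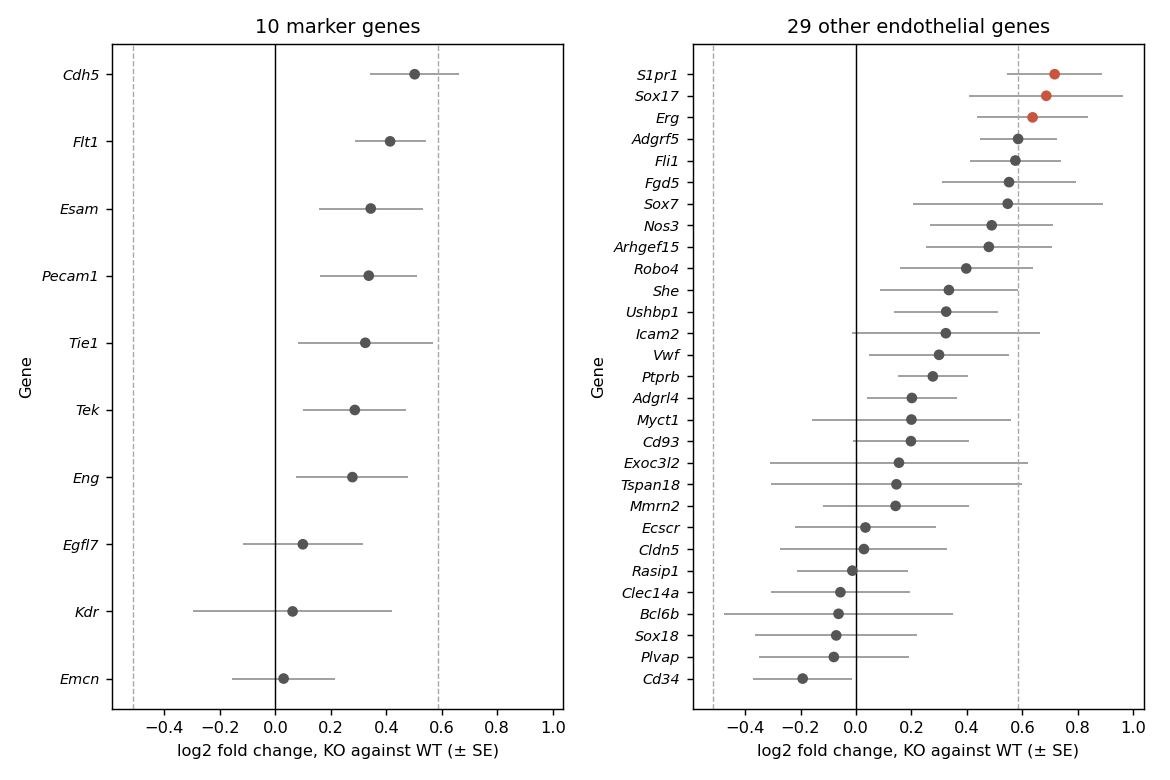
log2 fold change of KO against WT with its SE for the 10 marker genes (left) and 29 other endothelial genes (right), on the same axis, with dashed lines at fold changes of 1.5 and 0.7. The 10 markers lie between 0 and 0.50, and the genes in red (S1pr1, Sox17 and Erg) are those that passed the study's thresholds.

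Ligands and partners of the members were read from lists fixed for each pathway. On the VEGF side, 0 of 9 genes tested passed the thresholds, with a median log2 fold change of 0.14. Vegfa, the principal ligand of VEGFR2 and made largely by the fibres in muscle, was at 206.6, 122.8 and 146.5 CPM in WT and 164, 188 and 171 CPM in KO (log2 fold change 0.14, SE 0.18), so it was highest in WT replicate 1 and lowest in WT replicate 2, as Kdr was. Vegfb, a ligand of VEGFR1, was at 42.8, 28.2 and 26.6 CPM in WT and 32.7, 34.3 and 39.4 CPM in KO (0.13, SE 0.18). Both were negative under total-count scaling. Nrp1, a co-receptor, had a log2 fold change of -0.09 and Flt4, the receptor of lymphatic endothelium, one of 0.52 (edgeR adjusted p = 0.555). Pgf, placental growth factor, had 4 to 11 counts per library and was not tested.

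On the angiopoietin side, 0 of 7 genes tested passed, with a median of -0.01. Angpt1, the activating ligand of TIE2, was at 17.2, 13.3 and 17.5 CPM in WT and 16.7, 12.3 and 15.7 CPM in KO, a log2 fold change of -0.10 (SE 0.16). Angpt2, the context-dependent antagonist released by endothelium, was at 1.46, 0.685 and 0.659 CPM in WT and 1.37, 1.22 and 1.38 CPM in KO (0.52, SE 0.37, edgeR adjusted p = 0.671), low in the same WT samples in which Tie1 was low. Ptprb, the phosphatase VE-PTP that acts on TIE2 and VE-cadherin, was at 20.8, 21.9 and 19.1 CPM in WT and 25.0, 27.4 and 22.6 CPM in KO, without overlap, a log2 fold change of 0.28 (SE 0.13, edgeR adjusted p = 0.502).

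On the endoglin side, Gdf2 and Bmp10, the circulating ligands of endoglin, had 0 counts in every library, and 1 of the 15 other genes passed, with a list median of -0.09. That gene was Acvr2b, a type II activin receptor that muscle fibres also use, at 1.95, 1.74 and 1.78 CPM in WT and 2.82, 3.51 and 2.62 CPM in KO (log2 fold change 0.71, SE 0.22, edgeR adjusted p = 0.340). Acvrl1, which encodes ALK1, had a log2 fold change of -0.13 and Bmpr2, its type II partner, one of -0.09. The target genes Id1 (0.29) and Id3 (-0.11) had opposite signs. Of the 15 genes tested 10 had a negative log2 fold change, and Acvr2b did not pass without KO replicate 2 (0.58) or under total-count scaling (0.46).

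The junction partners, among them the catenins that bind VE-cadherin, junctional adhesion molecules and Cldn5, a list that shares Cldn5 and Ptprb with the wider endothelial list, had 0 of 11 genes past the thresholds, 9 of 11 positive and a median log2 fold change of 0.10. Genes of vessel types gave mixed values. Their lists can share genes with other lists, as Sox17 is also in the wider endothelial list. The counts and medians of the lists are therefore not separate observations. In the Notch and arterial list 2 of 13 genes passed as higher, Sox17 and the arterial ligand Efnb2 (2.47 to 3.61 CPM in WT, 4.93 to 5.01 CPM in KO, log2 fold change 0.66), and 1 as lower, the Notch target Hes1 (log2 fold change -0.62), with a median of 0.23. Hes1 was at 10.02 CPM in WT replicate 1 and at 5.29 and 4.71 CPM in the other WT samples, its log2 fold change was -0.22 without WT replicate 1, and it did not pass without that sample or without any 1 of the KO samples. Efnb2 did not pass without WT replicate 3 (0.51) or under total-count scaling (0.43), and the list median was 0.131 without WT replicate 3, 0.395 without WT replicate 1 and 0.00751 under total counts. The venous list had 0 of 7 past the thresholds and a median of -0.07, the lymphatic list 0 of 5 and -0.23, and the list of genes known to respond to shear stress 0 of 5 and 0.23. Of 8 capillary genes, among them Kdr, 1 passed as higher, and the median was 0.07. That gene was Car4, a carbonic anhydrase on the capillary surface (1.75 to 2.76 CPM in WT, 3.91 to 5.54 CPM in KO, log2 fold change 0.996, SE 0.23, edgeR adjusted p = 0.275). Car4 passed the study's thresholds in each fit that was run, with its smallest log2 fold change, 0.76, under total-count scaling. It was picked by those thresholds on the same libraries, so this adds no separate support. The medians of these short lists depended on single libraries: over the fits that left out 1 library they ran from 0.105 to 0.374 for the VEGF list, from -0.132 to 0.0733 for the angiopoietin list, from -0.12 to 0.00293 for the endoglin list, from -0.122 to 0.199 for the capillary list, from -0.206 to 0.189 for the venous list and from 0.0689 to 0.495 for the shear list. Under total-count scaling, where the median of all genes was -0.251, the medians of the VEGF (-0.089), junction (-0.143) and capillary (-0.153) lists were negative.

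Other cell types of the muscle moved with the genotype or with single libraries, and their part in the levels of the members was not tested. Of 9 genes of pericytes and smooth muscle, the mural cells that sit on vessels, 2 passed as higher in KO, Rgs5 (122 to 150 CPM in WT, 179 to 236 CPM in KO, log2 fold change 0.61) and Myh11 (5.63 to 9.33 CPM in WT, 9.65 to 16.6 CPM in KO, log2 fold change 0.83), and the list median was 0.40. Rgs5 did not pass without WT replicate 2 (0.56), WT replicate 3 (0.57) or KO replicate 2 (0.48) or under total-count scaling (0.37), whereas Myh11 passed in each fit that was run, and the list median was 0.16 under total counts. The summed level of the list was 287 to 296 CPM in WT and 355 to 447 CPM in KO, without overlap. Most of that sum was Rgs5 and Abcc9, the latter at 99.4 to 133 CPM in WT and 115 to 153 CPM in KO. The mean log2 CPM over the 9 genes, which weighs them alike, also did not overlap. Relative to the WT mean it was at most 0.177 in WT and at least 0.249 in KO. Both separations are of TMM-scaled levels, and every KO library had a lower TMM factor than every WT library. Whether they hold under total-count scaling was not tested. The summed level of the endothelial members was 101 to 163 CPM in WT and 152 to 169 CPM in KO. Of 8 leukocyte genes, 1 passed as higher (Cd3e, of T cells) and 2 as lower (Csf1r, of macrophages, and S100a9, of neutrophils), with a median of -0.89 that was -0.15 without WT replicate 3. Csf1r did not pass without WT replicate 3 or KO replicate 2, nor S100a9 without WT replicate 1 or KO replicate 3. The summed leukocyte level was 14.6, 12.3 and 28.3 CPM in WT and 11.7 to 17.2 CPM in KO, so the WT sample with the lowest endothelial index was the one with the most leukocyte transcripts. That sample also had the highest summed level of fibro-adipogenic genes, 233 CPM beside 79.9 and 135 CPM in the other WT samples and 67.6 to 132 CPM in KO, a list with 0 of 6 genes past the thresholds and a median of -0.48. Without that sample the median was -0.118 and 3 of 6 genes were positive, and without KO replicate 2 or WT replicate 2 it was -0.309 or -0.814.

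Blood cells were traced by their own genes. Of the 5 erythroid genes all had a negative log2 fold change, with a median of -0.68, and 2 passed as lower, the near-identical globin copies Hbb-bs and Hbb-bt, whose separate counts are uncertain. Without WT replicate 2, the sample with the most globin transcripts, the log2 fold changes of Hbb-bs and Hbb-bt were -0.45 and -0.43, 0 of 5 genes passed and the list median was -0.401. The summed level of the list was 174 to 293 CPM in WT and 142 to 165 CPM in KO, so that erythroid transcripts were lower in every KO sample while the endothelial index was not. Of 5 platelet genes only Pf4 passed the filter on low counts, and it passed as lower (log2 fold change -1.10, 7 to 25 counts per library) but not with DESeq2 or without WT replicate 1 or 3 or KO replicate 2 or 3, whereas Gp9 had 0 counts in every library. The Schwann cell list had 0 of 3 tested genes past the thresholds and a median of 0.48, the adipocyte list had none of its 5 genes at a testable level, and the fibre list had 0 of 8 past the thresholds and a median of 0.05.

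**Figure D5:**
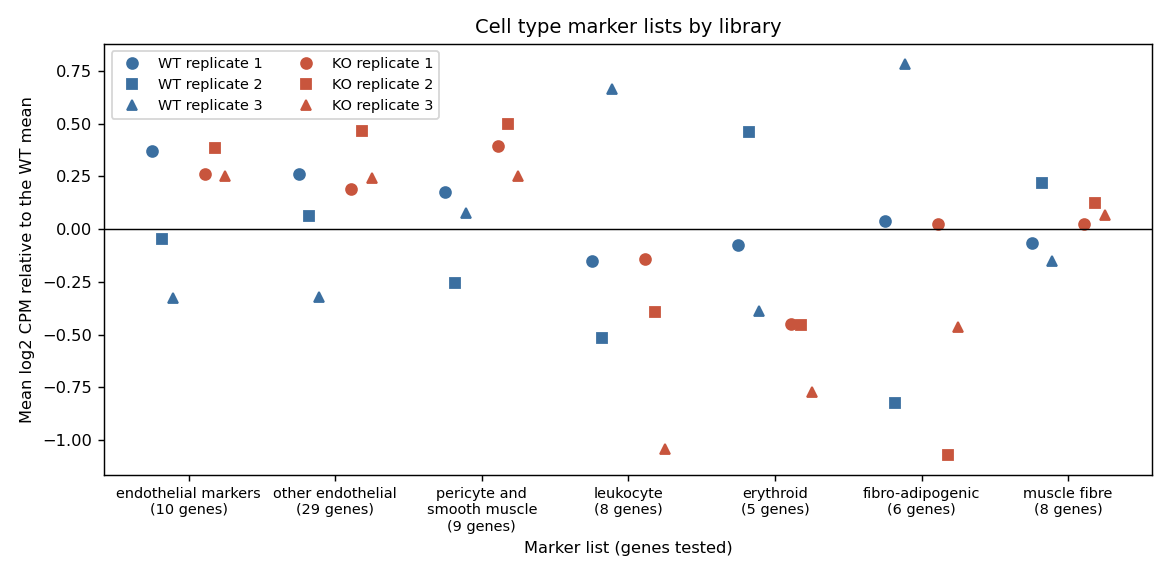
Mean log2 CPM over the tested genes of each cell type list in each library, relative to the WT mean, WT in blue and KO in red. WT replicate 3 is low in both endothelial lists and high in the leukocyte and fibro-adipogenic lists. Under the TMM scaling plotted, only in the pericyte and smooth muscle list is every KO library above every WT library.

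The values of the members depended on single WT libraries. Without WT replicate 1, the sample with the highest WT index, the median log2 fold change of the members was 0.512, and 2 of 10 members passed the thresholds as higher, Cdh5 (log2 fold change 0.65) and Tie1 (0.68). Without WT replicate 3, the sample with the lowest index, the median was 0.138 and 0 members passed. Cdh5 and Flt1 had an unadjusted edgeR p under 0.05 in each of the 6 fits that left out 1 library, but not under total-count scaling, where their log2 fold changes were 0.27 (edgeR unadjusted p = 0.118) and 0.18 (edgeR unadjusted p = 0.273). The sign of Kdr, Emcn and Egfl7 turned when 1 library was left out (WT replicate 3 for each, WT replicate 2 for Kdr and Emcn, and KO replicate 2 for Emcn), and 0 of the 10 members had an adjusted p under 0.05 in any fit that was run.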

How the data were processed

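RNA sequencing was performed on TA muscle of 3 WT and 3 SELENOW KO samples. Reads were aligned by the authors with Hisat2 and counted per gene with featureCounts, and they deposited raw counts, which are not normalized, with gene positions and lengths. GRCm38 is named in the paper's methods and GRCm39 in the submitters' processing notes; the positions of the members in the deposited count table do not match GENCODE M21 (GRCm38), so they are given as GRCm39. Handling of strand and of reads mapping to several places is not given in the sources used here. The WT column without a number was read as replicate 1, since the others are numbered 2 and 3. Ensembl identifiers gave symbols for 52083 of 55416 genes.

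Genes were kept with filterByExpr, scaled by TMM factors and compared in edgeR (version 4.0.16, R 4.3.3) with a robust quasi-likelihood fit and Benjamini-Hochberg adjustment over 15623 genes. The thresholds were those of the study (unadjusted p under 0.05, fold over 1.5 or under 0.7). SE is the absolute log2 fold change divided by the square root of F. CPM is TMM-scaled, and log2 CPM used a prior count of 1. Single genes were also compared by a two-sided exact permutation test. At this depth 3 counts in a library correspond to 0.0934 to 0.122 CPM, and the members had 121 to 798 counts per library, so counting error is part of the spread between samples, most of all for the members with the fewest counts. The fit was tested on simulated counts with known fold changes. The labels do not state that replicates are separate mice, while a figure legend of the paper gives n = 3 mice. The p-values measure the spread between these samples.

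The members and the gene lists were chosen with earlier results of these data known. The genes named were fixed by a rule. It took the 10 members, Selenow, 12 ligands, co-receptors and targets, each listed gene past the thresholds, and the 5 genes nearest to the index. Adgrf5, Fli1, Fgd5, Cd34, Plvap, Sox18, Abcc9 and the genes at 0 are outside this rule and were picked with their values in view. Alternatives were DESeq2 (version 1.42.0) as a test and for its size factors, other filters and thresholds, robust estimation off, a replicate block, an offset for gene length, leaving out mitochondrially encoded genes, and leaving out each library in turn. Scaling by total counts in edgeR was added after seeing the data. No set test was run.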

Additional observations from a re-analysis of the deposited data

How the results depend on the processing

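Of 10 members, 0 passed the thresholds under every alternative except leaving out WT replicate 1 (2 members), a range of 0 to 2 over the fits without 1 library. Their median log2 fold change stayed positive, from 0.138 to 0.512 over those fits, 0.271 with an offset for gene length and 0.075 under scaling by total counts. The number of genes past the thresholds was 836 in the main edgeR fit, with 345 higher and 491 lower. It was 1780 with no filter and 1789 under total counts, the latter with 80 higher and 1709 lower. It was 315 with an absolute log2 fold change over 1, 0 at an adjusted p under 0.05, and 814 to 1072 without 1 library. The index under total counts was -0.0225 in KO replicate 1 and 0.106 in KO replicate 2. The cause of these shifts was not tested.

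Signs reversed under total counts for Kdr (-0.147), Emcn (-0.201), Egfl7 (-0.12), Vegfa (-0.089) and Vegfb (-0.0919), and under the length offset for Kdr (-0.0455) and Emcn (-0.0141). Without 1 library, Kdr ranged from -0.163 to 0.57, Emcn from -0.0581 to 0.21 and Egfl7 from -0.131 to 0.32. The sign also turned, without 1 library, for Vegfa (-0.0138 to 0.375), Vegfb (-0.000277 to 0.373), Nrp1 (-0.242 to 0.202), Angpt1 (-0.218 to 0.0195), Acvrl1 (-0.258 to 0.123) and Bmpr2 (-0.19 to 0.0319). Flt1 had an unadjusted edgeR p of 0.0699 with the length offset. Of the 3 other endothelial genes past the thresholds, Erg was lost without WT replicate 3 or KO replicate 2, Sox17 without WT replicate 3, KO replicate 1 or KO replicate 3, and S1pr1 without KO replicate 3.

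Same-numbered samples did not deviate together (correlations 0.0596, 0.044 and -0.0736), so the replicate numbers are not taken as a pairing. With the replicate block, 890 genes and 0 members passed and the members' median was 0.325. The index difference was smaller than the SD of the 3 WT samples, and that number of samples limits what can be told apart.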
